A study of Mus musculus with 8 samples.

Results

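The genes described are Havcr2, which encodes the receptor TIM-3, the genes of 3 of its reported ligands (Lgals9, Ceacam1 and Hmgb1), and Bag6, which encodes a protein that binds the receptor's cytoplasmic tail. They were chosen by name as a receptor with its ligands and partner, with earlier results of these data known. By Ensembl identifier, all 5 were found among the 54837 identifiers of the count table. All 5 were also among the 18851 genes that had enough reads to be tested. RNA had been sequenced from CD4 T cells sorted from mouse spleen in 8 libraries. All mice carried Foxp3-eGFP-Cre-ERT2, an allele in which the Foxp3 gene, which defines regulatory T cells (Treg cells), drives a green fluorescent protein and a Cre recombinase that tamoxifen activates, and all had received tamoxifen on 5 consecutive days. GFPhi (n = 3) were cells positive for TIM-3, FLAG, GFP and FoxP3 from mice that also carried FSF-TIM-3. GFPlow (n = 3) were cells of that same genotype that were positive for TIM-3 and FLAG and negative for GFP and FoxP3. WT (n = 2) were TIM-3-negative, FLAG-negative, GFP-positive and FoxP3-positive cells from mice without FSF-TIM-3. The labels do not spell out how FSF-TIM-3 is built, and counts per gene do not separate transcripts of the mouse's own Havcr2 gene from transcripts of a TIM-3 transgene. Each library is called by its group and title number. The labels do not say whether libraries came from separate animals, so p-values measure the spread between these libraries, which may be partly technical.

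TIM-3 is a transmembrane receptor of the immunoglobulin superfamily found on activated effector T cells, on tissue and tumour Treg cells, and on myeloid cells. Galectin-9 (from Lgals9) binds its sugars, CEACAM1 binds it on the same or on a neighbouring cell, the nuclear protein HMGB1 binds it once released from cells, and phosphatidylserine binds it on dying cells. Its tail has no classical inhibitory motif and signals through conserved tyrosines. BAG6, also called BAT3, is held at the tail of the resting receptor together with the kinase LCK, and is released when ligand binding leads to phosphorylation of those tyrosines.

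The end of the Havcr2 coding sequence is shown because it encodes the tail that BAG6 binds. It is the last 63 codons, codon 220 to the stop codon, of the annotated coding transcript (GENCODE vM21, GRCm38, plus strand, chr11:46475892-46479446, spliced from exon blocks 46475892 to 46475920 and 46479287 to 46479446). Capitals mark the 5 tyrosine codons, at codons 256, 263, 271, 272 and 274 of 281. In mouse TIM-3 the tyrosines at 256 and 263 are those whose phosphorylation is known to release BAG6.
Havcr2 coding end: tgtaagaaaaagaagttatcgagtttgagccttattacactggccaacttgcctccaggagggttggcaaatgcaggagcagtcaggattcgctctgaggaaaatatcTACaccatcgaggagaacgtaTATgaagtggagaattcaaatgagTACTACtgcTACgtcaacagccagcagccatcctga

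Promoter sequence is shown for Havcr2 and Lgals9, the members whose windows held a match to a motif that was searched. The Havcr2 window is the 250 bases before the start site (RefSeq promoter table, GRCm38.p6, plus strand, chr11:46454681-46454930). Its capitals mark the single match to TGANTCA, the letters of an AP-1 site, which starts 200 bases before the start site. AP-1 proteins include BATF, whose gene is among the regulators described below. Counts do not separate transcripts of the mouse's own Havcr2 gene from those of a transgene, so whether this promoter bears on the Havcr2 levels was not tested.
Havcr2 promoter: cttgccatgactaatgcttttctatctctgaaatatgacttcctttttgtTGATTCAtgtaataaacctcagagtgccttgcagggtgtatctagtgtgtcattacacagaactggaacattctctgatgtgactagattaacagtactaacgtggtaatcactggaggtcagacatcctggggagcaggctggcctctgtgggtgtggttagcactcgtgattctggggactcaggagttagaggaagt
The Lgals9 promoter held 2 matches to GAAA and GAAA with NN between them, the core letters of the interferon-stimulated response element (ISRE), both on the opposite strand. Each is given with 10 bases on either side, on the minus strand, in capitals (chr11:78984960-78984989, whose match starts 55 bases before the start site, and chr11:78984890-78984919, whose match starts 16 bases after it).
Lgals9 upstream window: tgacatcagcTTTCTTTTTCtctagacact
Lgals9 downstream window: atagctgtggTTTCTGTTTCctagctcagc
Over all 32851 promoter windows of 300 bases in the table, 7.81% held TGANTCA and 3.44% held the ISRE letters on either strand. The letters GGTGTGA (T-box, in 3.98% of windows), TTANNTAA (NFIL3, 6%) and TGCTGAC (MAF, 4.67%) were searched on both strands as well. They were not found in these windows for any of the 5 genes, and the windows of Ceacam1, Hmgb1 and Bag6 held none of the 5 motifs. A match describes letters only.

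Total counts ran from 44446215 to 55388756 per library. WT 1 stood apart: counts were found for 18599 genes, against 21248 to 22185 in the other libraries, 6.54% of its counts were mitochondrial, against 2.35% to 2.78%, and its Pearson correlation with the others across genes was 0.853 to 0.885, against 0.925 to 0.963 among the remaining pairs. Levels are given as CPM, the reads of a gene per 1000000 reads of the library after TMM scaling. Cd4 was detected in every library, at 288 to 309 CPM in GFPhi, 400 to 436 CPM in GFPlow, and 109 and 298 CPM in WT, and Cd8a reached at most 4.05 CPM. Foxp3 stood at 60.2 to 81 CPM in GFPhi, 1.97 to 4.82 CPM in GFPlow, and 41.7 and 63.2 CPM in WT, so that GFPlow, although titled as Treg cells, had little of the transcript that defines them. Xist, transcribed from the inactive X chromosome of females, was at 237 CPM in GFPhi 3, 184 CPM in GFPlow 3 and 242 CPM in WT 2, and at most 0.263 CPM elsewhere, so libraries of both sexes stand in each group. WT 2 also held 6.16 CPM of the Y-linked Ddx3y.

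Havcr2 (ENSMUSG00000020399, GRCm38, chr11:46454935-46481255, plus strand) was the member that separated the groups most. It stood at 1525, 1077 and 1791 CPM in GFPhi libraries 1, 2 and 3, at 260, 127 and 538 CPM in GFPlow libraries 1, 2 and 3, and at 0.876 CPM in WT 1 and 0.172 CPM in WT 2. No library of any group overlapped with another group. In GFPhi it ranked between 62nd and 127th of 18846 genes by CPM per kilobase of exon, and in GFPlow between 273rd and 1283rd. In WT it ranked 13958th and 17188th, on 27 and 10 reads.

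GFPhi cells had 4.75 times the Havcr2 of GFPlow cells, a log2 difference of 2.25 ± 0.61 (SE, 95% interval 0.84 to 3.65). The groups did not overlap, which was also true of 30.0% of all genes tested, and the unadjusted p was 0.00608, in a comparison where 11.6% of all genes had an unadjusted p under 0.05. After Benjamini-Hochberg adjustment over all genes this difference did not pass the threshold of 0.05 in edgeR's quasi-likelihood test (adjusted p = 0.134), and no member passed, while 2.26% of all genes did (1.63% higher in GFPhi). The call depended on the fit. With the title number as a block and only the GFPhi and GFPlow libraries, Havcr2 passed at 2.46 (edgeR, adjusted p = 0.00376), where 1752 of 17056 genes did. With that block in all 8 libraries it did not pass, at 2.48 (edgeR, adjusted p = 0.0662). Havcr2 passed at 2.24 without WT 1 (edgeR, adjusted p = 0.0485), at 2.24 with only the GFPhi and GFPlow libraries in the fit (adjusted p = 0.0472), at 2.23 in DESeq2 (adjusted p = 0.00451) and at 2.46 in limma voom with sample weights (adjusted p = 0.00169), whereas 9.66%, 12.3%, 7.29% and 12.0% of all genes passed in these fits.

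GFPlow libraries varied more among themselves than GFPhi libraries did. The coefficient of variation of Havcr2 was 24.6% in GFPhi and 68% in GFPlow, and the highest library held 1.66 times the lowest in GFPhi and 4.24 times in GFPlow. In each group library 3 was highest and library 2 lowest. Library 3 of each group is also the one with Xist reads, and between these libraries the GFPhi level was 3.33 times the GFPlow level. Between the libraries numbered 1 the ratio was 5.86, and between those numbered 2 it was 8.48.

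The TIM-3-positive groups were sorted on TIM-3 and WT cells were sorted without it, so the difference from WT checks the sort and is no finding. It was 11.56 ± 1.13 on the log2 scale for GFPhi over WT (SE; edgeR, adjusted p = 0.121) and 9.32 ± 1.04 for GFPlow over WT (SE; edgeR, adjusted p = 0.00468). Havcr2 was thus the only member that passed against WT, in GFPlow, where 3.30% of all genes passed (1.08% higher in GFPlow). In GFPhi against WT 0 genes passed in edgeR and 0 in voom, although 2588 (13.7%) had an unadjusted p under 0.05 in edgeR and 320 (1.70%) passed in DESeq2. Of the members, 2 had an unadjusted p under 0.05 in that comparison, and Havcr2 passed in DESeq2. Both comparisons share the WT libraries.

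**Figure D1:**
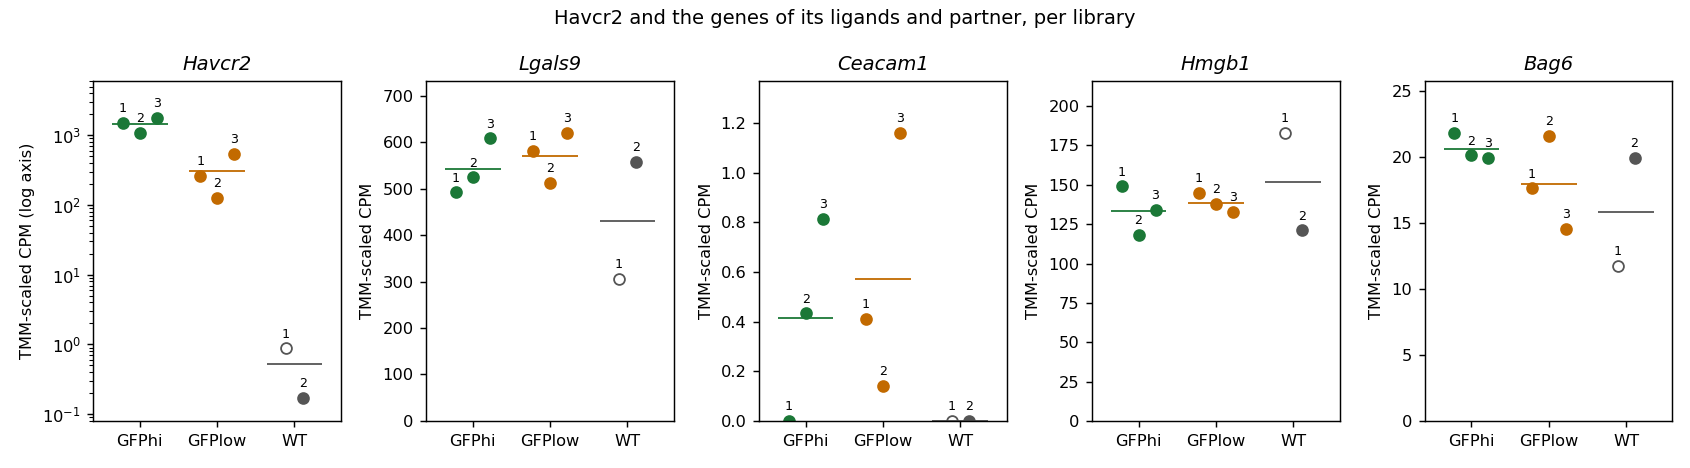
TMM-scaled CPM (vertical axes, log scale for Havcr2 and linear from 0 for the others) of each member in every library, with groups on the horizontal axes, numbers for the library, lines for group means and an open circle for WT 1. Havcr2 falls into 3 separate levels, Ceacam1 stays at or under 1.16 CPM, and for Lgals9, Hmgb1 and Bag6 the library farthest from the rest is WT 1.

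Myeloid cells also transcribe Havcr2, and their markers were summed in each library. The summed level of Lyz2, Csf1r, Itgam, Cd14 and Adgre1 was 1.35, 0.32 and 19.4 CPM in GFPhi libraries 1, 2 and 3, 18, 1.28 and 223 CPM in GFPlow libraries 1, 2 and 3, and 9.08 and 28.7 CPM in WT libraries 1 and 2. The order of these sums within GFPhi and within GFPlow was that of Havcr2. Within GFPlow, Lyz2, Csf1r, Itgam and Adgre1 each followed that order. Within GFPhi, Itgam stood at 0.15, 0.0565 and 0 CPM in libraries 1, 2 and 3. Adgre1 stood there at 0, 0.0188 and 7.91 CPM, so that neither followed it. Lyz2, which encodes the lysozyme of macrophages and neutrophils, made up 197 of the 223 CPM in GFPlow 3, while Cd14 was at 0 in GFPhi 1, GFPhi 2, GFPlow 1, GFPlow 2 and WT 1. WT 2 had a higher myeloid sum than every GFPhi library, with Havcr2 at 0.172 CPM. The difference between GFPhi and GFPlow was 2.75 on the log2 scale without both libraries numbered 3, a setting added after the data were seen (edgeR, adjusted p = 0.348).

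**Figure D2:**
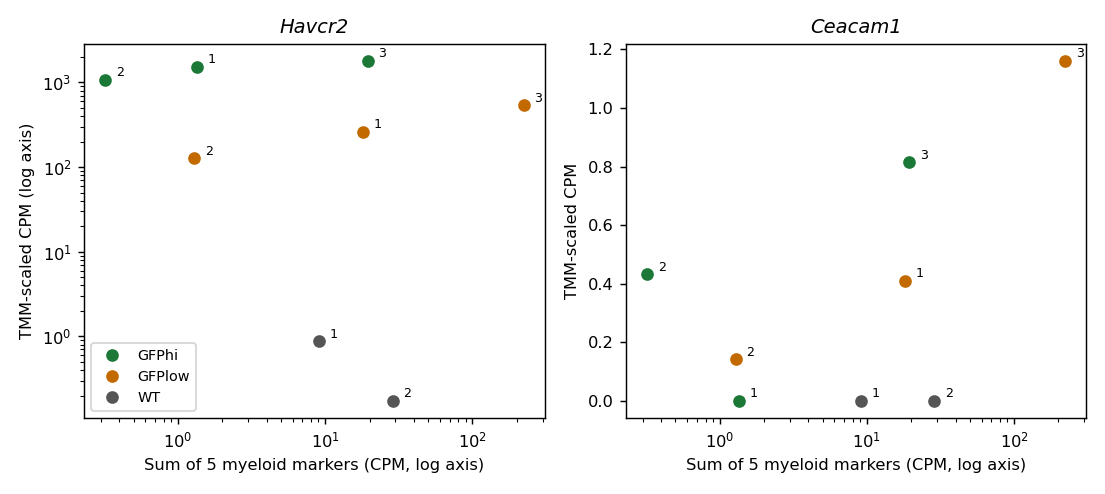
Havcr2 (left, log vertical axis) and Ceacam1 (right, linear vertical axis) in TMM-scaled CPM against the summed CPM of 5 myeloid markers (log horizontal axis), 1 point per library with its number. All GFPhi points lie above all GFPlow points in Havcr2 while the myeloid sums of these groups overlap, and GFPlow 3, with a sum of 223 CPM, has the highest Ceacam1.

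In bulk libraries a smaller share of cells that express a gene and less RNA per cell cannot be told apart. NK cells are another source of Havcr2 transcript, and the sum of their markers stood higher in every GFPlow library than in the GFPhi libraries. GFPhi and GFPlow were labelled as CD4 cells sorted positive for TIM-3 and FLAG, which is not a measure of purity. The sum of Ncr1, Klrb1c and Klra8 was 1.13 to 2.49 CPM in GFPhi, 10 to 42 CPM in GFPlow, and 5.94 and 1.59 CPM in WT. Klrb1c made up most of it. Ncr1, the natural cytotoxicity receptor, was at 0 in GFPlow 1 and GFPlow 2, 0.885 CPM in GFPhi 2 and 7.81 CPM in GFPlow 3. Klra8 was at 0 in every GFPhi library and in GFPlow 1 and GFPlow 2. Dendritic markers summed to 4.6 to 6.21 CPM in GFPhi, 3.92 to 5.63 CPM in GFPlow, and 7.56 and 4.36 CPM in WT, mostly from Zbtb46, with Flt3 at 0.889 CPM in GFPhi 3, Itgax at 1.14 CPM in GFPlow 3 and Siglech at 0 in all libraries. The part of other cells in the Havcr2 levels was not tested beyond these values.

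Lgals9 (ENSMUSG00000001123, chr11:78962974-78984946, minus strand) encodes galectin-9, a lectin with paired sugar-binding domains. It was the most abundant of the ligand genes. It stood at 492, 524 and 608 CPM in GFPhi, 581, 512 and 620 CPM in GFPlow, and 305 and 557 CPM in WT. GFPhi and GFPlow overlapped, WT 2 lay within both groups, and WT 1 lay below every other library. The log2 difference of GFPhi over GFPlow was -0.08 ± 0.25 (SE, 95% interval -0.64 to 0.49), and Lgals9 did not pass in edgeR (adjusted p = 1).

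Set against both WT libraries Lgals9 differed by 0.33 ± 0.28 in GFPhi (log2, SE, 95% interval -0.31 to 0.97) and by 0.41 ± 0.28 in GFPlow (95% interval -0.23 to 1.05). Neither passed in edgeR, with adjusted p-values of 0.542 and 0.373. The value turned on which WT library was used. Against WT 1 alone the log2 differences were 0.85 in GFPhi and 0.93 in GFPlow (edgeR, adjusted p = 0.00216 and 0.00124), in fits where 40.1% and 43.9% of all genes passed. Against WT 2 alone they were -0.04 in GFPhi and 0.04 in GFPlow.

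Ceacam1 (ENSMUSG00000074272, chr7:25461707-25477603, minus strand) encodes a cell adhesion molecule of the CEA family that carries inhibitory motifs in its long tail. It was at the edge of detection. Reads numbered 0, 23 and 44 in GFPhi, 22, 7 and 60 in GFPlow, and 0 and 0 in WT. In CPM this is 0, 0.433 and 0.815 in GFPhi and 0.411, 0.142 and 1.16 in GFPlow. GFPhi 1 had no read, as had both WT libraries, and a count of 0 allows up to 3 reads, or 0.0562 CPM in GFPhi 1, 0.0973 CPM in WT 1 and 0.0517 CPM in WT 2, counting error alone.

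With 3 reads over both WT libraries as the limit, the observed mean of Ceacam1 was 12.3 times that limit in GFPhi and 16.9 times in GFPlow. Library 3 of each group carried much of this. Without it, a setting added after the data were seen, the ratios were 6.41 in GFPhi and 8.19 in GFPlow. These ratios allow for counting error in WT only, not for the spread among GFPhi or GFPlow libraries, and GFPhi 1 had no read. In edgeR the unadjusted p-values were 0.0347 and 0.0282, where 13.7% and 25.0% of all genes had one under 0.05. After adjustment Ceacam1 did not pass in GFPhi (adjusted p = 0.351) or in GFPlow (adjusted p = 0.156). In DESeq2 the GFPlow difference passed (adjusted p = 0.026), as 17.2% of all genes did. In voom the unadjusted p-values were 0.686 in GFPhi and 0.597 in GFPlow. Between GFPhi and GFPlow the libraries overlapped, with a log2 difference of -0.46 ± 1.49 (SE; edgeR, adjusted p = 1), which was 0.13 without GFPhi 1 and 0.58 without GFPlow 3.

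Within GFPlow the myeloid sum and the Ceacam1 reads both followed the order 3, 1, 2. Within GFPhi they did not, since GFPhi 1 had a myeloid sum of 1.35 CPM and no Ceacam1 read, and GFPhi 2 had 0.32 CPM and 23 reads. WT 2, with a myeloid sum of 28.7 CPM, had no Ceacam1 read. An annotated antisense transcript, 4732471J01Rik, lies across Ceacam1 and had 58, 60 and 95 reads in GFPhi, 45, 55 and 83 in GFPlow, and 0 and 38 in WT. Whether counting used strand is not given in the sources used here, so reads of Ceacam1 and of this transcript cannot be told apart. Ceacam2, the close relative next to it, had 4 reads in GFPlow 2 and none elsewhere.

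Hmgb1 (ENSMUSG00000066551, chr5:149046702-149184489, minus strand) encodes an abundant chromatin protein that acts as an alarm signal outside the cell. It stood at 149, 118 and 134 CPM in GFPhi, 145, 138 and 133 CPM in GFPlow, and 183 and 121 CPM in WT. All groups overlapped, and WT 1 was the highest library. The coefficient of variation was 11.7% in GFPhi and 4.08% in GFPlow. The log2 difference of GFPhi over GFPlow was -0.05 ± 0.20 (SE, 95% interval -0.50 to 0.40; edgeR, adjusted p = 1).

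Against both WT libraries the log2 difference in Hmgb1 was -0.19 ± 0.22 in GFPhi (SE; edgeR, adjusted p = 0.659) and -0.13 ± 0.22 in GFPlow (SE; edgeR, adjusted p = 0.718). Against WT 1 alone it was -0.43 in GFPhi and -0.38 in GFPlow (edgeR, adjusted p = 0.0257 and 0.0391). Against WT 2 alone the sign turned, to 0.15 in GFPhi and 0.20 in GFPlow. The table lists 14 Hmgb1-named copies, mostly processed pseudogenes, whose summed count reached 36.1% of that of Hmgb1 in a library, so that its level is uncertain by the way reads were shared among copies.

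Bag6 (ENSMUSG00000024392, chr17:35135178-35147322, plus strand) encodes a ubiquitin-like chaperone that guards newly made membrane proteins in the cytosol and occupies the tail of TIM-3. It stood at 21.8, 20.1 and 19.9 CPM in GFPhi, 17.6, 21.6 and 14.5 CPM in GFPlow, and 11.7 and 19.9 CPM in WT. GFPhi libraries lay close together (coefficient of variation 4.9%, against 20% in GFPlow), they overlapped with GFPlow and stood just above WT 2, and WT 1 was the lowest. The log2 difference of GFPhi over GFPlow was 0.21 ± 0.26 (SE, 95% interval -0.38 to 0.79; edgeR, adjusted p = 0.992).

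Against both WT libraries the Bag6 difference was 0.38 ± 0.29 in GFPhi (log2, SE; edgeR, adjusted p = 0.503) and 0.17 ± 0.29 in GFPlow (log2, SE; edgeR, adjusted p = 0.722). Against WT 1 alone it was 0.84 in GFPhi and 0.63 in GFPlow (edgeR, adjusted p = 0.0278 and 0.0706), and against WT 2 alone it was 0.05 in GFPhi and -0.15 in GFPlow. Between GFPhi and GFPlow the 95% intervals of Lgals9, Hmgb1 and Bag6 lay within 1 log2 unit of 0, and that of Havcr2 reached 3.65. Counted by overlap, the libraries of GFPhi and WT did not overlap for 2 of the 5 genes, Havcr2 and by a narrow margin Bag6, against 28.1% of all genes, and those of GFPlow and WT for 2, Havcr2 and Ceacam1, against 40.3%.

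**Figure D3:**
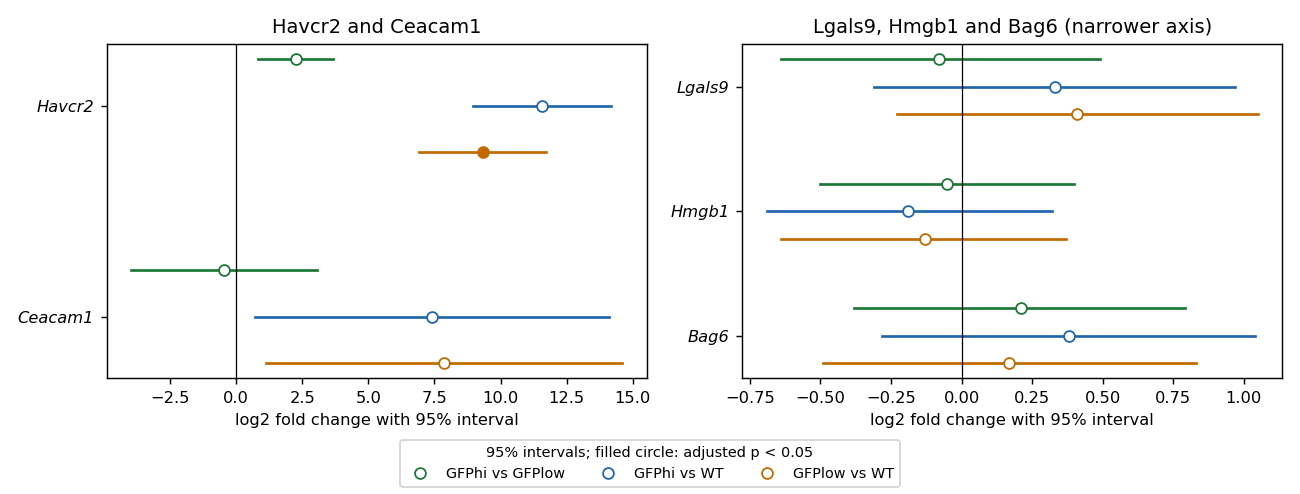
Log2 fold changes (horizontal axes, points with 95% intervals from edgeR) of each member in the 3 comparisons, with a narrower axis on the right and filled points past the adjusted threshold. Havcr2 in GFPlow over WT is the filled point, the intervals of Lgals9, Hmgb1 and Bag6 span 0 in all comparisons, and the fitted folds of Ceacam1 over WT, where WT has no read, depend on the prior count.

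Per kilobase of exon, receptor and ligand genes changed places between groups. In GFPhi the level of Havcr2 was 538 ± 133 CPM per kilobase (SD, n = 3), above Lgals9 at 253 ± 28.2, Hmgb1 at 26.6 ± 3.1, Bag6 at 3.32 ± 0.162 and Ceacam1 at 0.0717 ± 0.0703. No neighbours in that order overlapped. In GFPlow Lgals9 came first at 267 ± 25.7 CPM per kilobase (SD, n = 3), followed by Havcr2 at 113 ± 77.1, Hmgb1 at 27.6 ± 1.13, Bag6 at 2.87 ± 0.575 and Ceacam1 at 0.0985 ± 0.0911, again without overlap between neighbours. In WT libraries 1 and 2 Lgals9 stood at 143 and 261 CPM per kilobase, Hmgb1 at 36.5 and 24, Bag6 at 1.89 and 3.2, Havcr2 at 0.322 and 0.0634, and Ceacam1 at 0. The lengths are those of all annotated exons, and noncoding bases make up 68.9% of the annotated coding transcript of Havcr2, so a transgene transcript of another length would shift its value on this scale.

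Other genes of the pathway were read from 10 lists with 56 genes, of which 47 were tested. The lists were chosen with earlier results of these data known, so their shares of passing genes are a description only. Between GFPhi and GFPlow 4 of the 47 passed, which is 8.51% against 2.26% of all genes, and the median log2 difference was 0.12, against 0.01 over all genes. Against WT 0 of the 47 passed in GFPhi in edgeR, DESeq2 and voom, with 4 at an unadjusted p under 0.05 in edgeR, and the median was 0.32, against 0.08 over all genes. In GFPlow 5 passed, which is 10.6% against 3.30% of all genes, with a median of 0.02, as over all genes. Tnfrsf9, Plscr1 and Tbx21 passed in both comparisons with GFPlow, which share the GFPlow libraries.

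Among proteins that galectin-9 binds, 1 of 5 passed between GFPhi and GFPlow. Tnfrsf9 encodes the costimulatory receptor 4-1BB. It stood at 358, 288 and 291 CPM in GFPhi, 42.4, 45 and 45.2 CPM in GFPlow, and 187 and 309 CPM in WT. GFPlow was the low group and the others overlapped. Tnfrsf9 was higher in GFPhi than in GFPlow by 2.82 ± 0.23 (log2, SE; edgeR, adjusted p = 0.00188) and lower in GFPlow than in WT by 2.49 on the log2 scale (edgeR, -2.49 ± 0.24, SE, adjusted p = 0.00371). The list's median between GFPhi and GFPlow was 0.35, with all 5 above 0. The galectin relatives Lgals1, Lgals3 and Lgals8 had 0 of 3 past the threshold in each comparison in edgeR, with a median between GFPhi and GFPlow of 0.07.

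Among the kinases and adaptors of the tail the median log2 difference was 0.06 between GFPhi and GFPlow, 0.41 in GFPhi over WT and 0.44 in GFPlow over WT. Over all genes these medians were 0.01, 0.08 and 0.02. Lck, named after its values were seen as the kinase held at the tail with BAG6, stood at 1977, 2057 and 1873 CPM in GFPhi, 2483, 2455 and 2205 CPM in GFPlow, and 845 and 1965 CPM in WT. WT 2 thus lay within GFPhi in Lck and WT 1 below every other library. Lcp2 likewise stood at 170 CPM in WT 1 and 536 CPM in WT 2, with a mean of 529 CPM in GFPhi. Fyn, Grb2 and Ptprc were not lower in WT 1 than in WT 2. GFPlow lay above GFPhi in Lck without overlap, and its difference did not pass (GFPhi over GFPlow, log2 -0.27 ± 0.30, SE; edgeR, adjusted p = 0.974).

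Plscr1, an interferon-inducible membrane protein named for phospholipid scrambling, was the 1 of 6 genes of phosphatidylserine exposure that passed. It stood at 45.4, 39.4 and 32.8 CPM in GFPhi, 14.7, 10.8 and 13.1 CPM in GFPlow, and 69.8 and 37 CPM in WT. GFPlow was below every other library. Plscr1 was higher in GFPhi than in GFPlow (log2 1.61 ± 0.28, SE; edgeR, adjusted p = 0.0257) and lower in GFPlow than in WT (log2 -2.05 ± 0.30, SE; edgeR, adjusted p = 0.0118). The scramblase genes Xkr8 and Ano6, named after their values were seen as the best-known of the list, had log2 differences of 0.55 and -0.12 between GFPhi and GFPlow that did not pass.

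Of 5 regulators of Havcr2 transcription 1 passed between GFPhi and GFPlow and 2 in GFPlow against WT. Whether any of them bears on the Havcr2 levels, which may include transgene transcripts, was not tested. Tbx21 encodes T-bet, the factor of type 1 helper cells, which activates Havcr2 in those cells. It stood at 6.07, 7.57 and 4.48 CPM in GFPhi, 17.5, 15.3 and 18.1 CPM in GFPlow, and 1.59 and 1.78 CPM in WT. The groups were fully apart, in the order GFPlow, GFPhi, WT. Tbx21 was lower in GFPhi than in GFPlow (log2 -1.49 ± 0.27, SE; edgeR, adjusted p = 0.0295) and higher in GFPlow than in WT (3.33 ± 0.34, SE; edgeR, adjusted p = 0.00379), and the difference of GFPhi from WT did not pass (1.84 ± 0.32, SE; edgeR, adjusted p = 0.348).

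Batf, whose protein joins AP-1 complexes in T cells, stood at 212, 212 and 171 CPM in GFPhi, 132, 132 and 109 CPM in GFPlow, and 335 and 215 CPM in WT. GFPlow was the lowest group, without overlap. WT was the highest, with WT 2 above GFPhi by a narrow margin, and GFPhi over WT did not pass (log2 -0.47 ± 0.24, SE; edgeR, adjusted p = 0.385). Batf was lower in GFPlow than in WT (log2 -1.15 ± 0.23, SE; edgeR, adjusted p = 0.0397), and GFPhi over GFPlow did not pass (0.67 ± 0.21, SE; edgeR, adjusted p = 0.206). The list's median was 0.67 between GFPhi and GFPlow and -1.15 in GFPlow over WT.

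In the remaining 5 lists 0 genes passed in edgeR in any comparison. These were the TIM family (1 of 3 tested), CEACAM relatives with the phosphatases SHP-1 and SHP-2 (2 of 8 tested), HMGB relatives and receptors (5 of 6), the BAG6 complex (7 of 7) and the shedding proteases Adam10 and Adam17 (2 of 2). Their median log2 differences between GFPhi and GFPlow were -1.01, -0.07, 0.46, -0.09 and 0.30. Among the TIM genes, which lie within 330 kb of Havcr2 on chromosome 11, Havcr1 (TIM-1) and Timd2 (TIM-2) had no read in any library and Timd4 (TIM-4) stayed at or under 2.92 CPM. These were named after their values were seen, as were Ceacam10, Ceacam18 and Ceacam20, which had no read either.

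Several of these calls rested on each library. Between GFPhi and GFPlow, Plscr1 and Tbx21 no longer passed when any GFPhi or GFPlow library was left out, and Tnfrsf9 was lost only without both libraries numbered 3 (edgeR, adjusted p = 0.0947). In GFPlow against WT, Batf was lost when any GFPhi or GFPlow library was left out, Plscr1 without GFPlow 2 or GFPlow 3, while Tnfrsf9 and Tbx21 still passed whichever of these 6 was left out. The calls in GFPlow against WT also depended on the fit. In voom Plscr1, Tbx21 and Batf were lost, with only both groups in the fit Tnfrsf9, Plscr1 and Batf, and without both libraries numbered 3 all 4 of these genes, with a highest adjusted p of 0.0771 for Tnfrsf9 and 0.478 for Tbx21 over all alternatives. Without WT 2, 31 pathway genes passed in GFPhi and 33 in GFPlow, in fits where 40.1% and 43.9% of all genes passed.

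**Figure D4:**
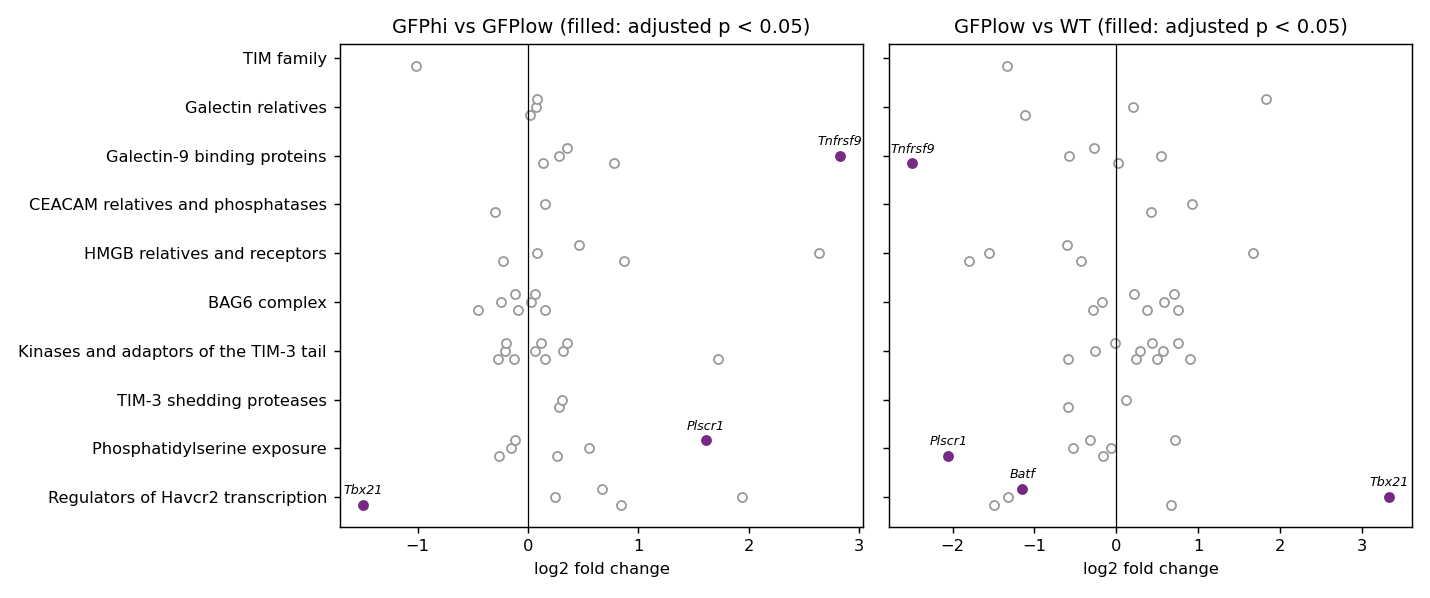
Log2 fold changes (horizontal axes) of the tested genes of 10 pathway lists that are reported here (rows), GFPhi over GFPlow on the left and GFPlow over WT on the right, 1 circle per gene, filled and named where the adjusted p is under 0.05. Tnfrsf9 and Plscr1 lie right of 0 on the left panel and left of 0 on the right panel, and Tbx21 does the reverse.

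The genes most like each member were ranked by Pearson's r of log2 CPM over the 8 libraries among 8078 genes with a mean log2 CPM above 3. All points share depth, the groups and WT 1, so r is a description. For Havcr2 the nearest were Cep78 (r = 0.939), Camkk2 (0.932) and Qtrt2 (0.913). Cep78, a gene of a centriole protein, stood at 10.5, 11.7 and 10.9 CPM in GFPhi, 7.34, 10.5 and 8.76 CPM in GFPlow, and 5.29 and 3.81 CPM in WT, a far smaller range than that of Havcr2. Without WT 1 r with Cep78 was 0.931, and Lig4 and Setd5 were among the nearest 3.

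Lgals9 was most like Oasl1 (r = 0.987), Txnip (0.986) and Adi1 (0.984). Oasl1, an interferon-stimulated gene of the oligoadenylate synthetase family, stood at 5.94, 8.24 and 17 CPM in GFPhi, 15.3, 10.6 and 22.1 CPM in GFPlow, and 0.811 and 9.31 CPM in WT. Like Lgals9 it was highest in GFPhi 3 and GFPlow 3 of their groups and lowest in WT 1. Without WT 1 its r was 0.927, and the nearest genes became Prpf4b (0.976), Phf11c (0.97) and Ifit3 (0.963).

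Ifit3, another interferon-stimulated gene, stood at 25.2, 42.6 and 103 CPM in GFPhi, 66, 40.9 and 146 CPM in GFPlow, and 96.2 and 47.4 CPM in WT. Over all 8 libraries its r with Lgals9 was 0.04, since WT 1 was high in Ifit3 and low in Lgals9. The ISRE letters printed above stand in the Lgals9 window, and whether they bear on this pattern was not tested.

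**Figure D5:**
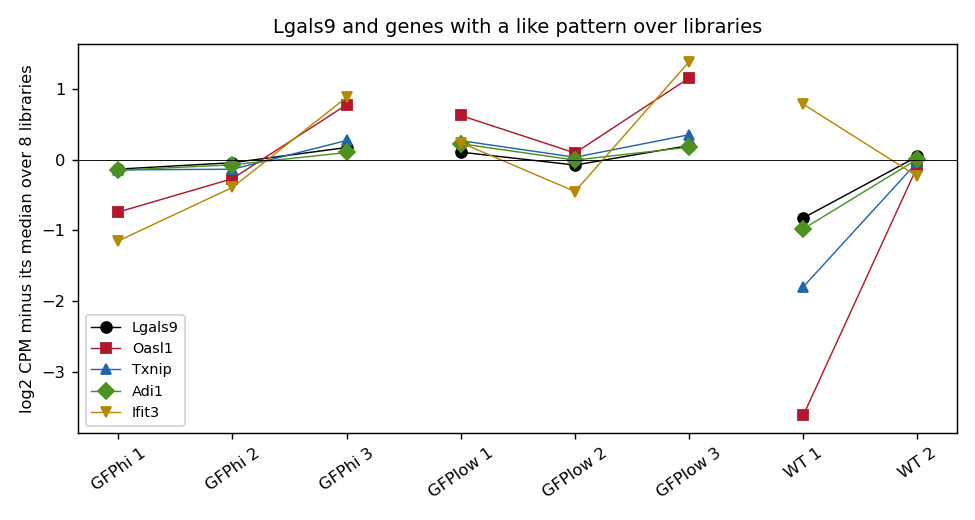
Log2 CPM of Lgals9, Oasl1, Txnip, Adi1 and Ifit3 in each library (horizontal axis), each minus its own median over the 8 libraries (vertical axis, log2 units). Lgals9, Oasl1, Txnip and Adi1 are lowest in WT 1, where Ifit3 is above its median, and in GFPhi and GFPlow all 5 are higher in library 3 than in library 2.

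Of the other members, Hmgb1 had Mcmbp (r = 0.962, and 0.897 without WT 1) and Zscan26 (0.955, and 0.867 without WT 1) among its nearest 3. Mcmbp, whose protein binds the replicative MCM helicase, stood at 52.5, 39.1 and 41.4 CPM in GFPhi, 52.1, 51.6 and 46.6 CPM in GFPlow, and 87 and 41.6 CPM in WT. It shared with Hmgb1 the highest level in WT 1 and the lowest in GFPhi 2. Bag6 had Angptl2 (r = 0.983, and 0.955 without WT 1) and Nrd1 (0.97, and 0.959 without WT 1) among its nearest 3. Ceacam1, on few reads, was most like Tnpo2 (0.96), Dnajb9 (0.957) and Wdr47 (0.951).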

How the data were processed

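The deposited table holds raw counts of reads, 1 row per Ensembl gene, not normalized. The submitters' processing notes list, without roles, edgeR, R 4.0, HTSeq 0.11.2, HISAT2 2.1.0, SAMtools 1.9 and the build GRCm38. Annotation release, strandedness and read filters were not given in the sources used here. Per the labels' protocols, cells were sorted into lysis buffer and libraries made with SMART-Seq HT and Nextera XT kits. Without molecular identifiers, the limits given for counts of 0 cover only counting error. Columns were matched to samples by title, and 0 columns were left out. Of 54837 identifiers, 54808 matched GENCODE vM21.

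Genes were kept by filterByExpr (18851), libraries were scaled by TMM, and edgeR 4.0.16 was fitted to all 8 libraries with 1 mean per group (robust quasi-likelihood, 5 residual degrees of freedom). Tests were two-sided, with Benjamini-Hochberg adjustment over every gene tested and a threshold of 0.05. Exon lengths are the union of annotated exons. The model was tested on simulated data. Alternatives were median-of-ratios scaling, no filter, a filter of 5 CPM in 2 libraries, DESeq2 1.42.0, limma 3.58.1 voom with sample weights, a block for the replicate number, a fit on both compared groups alone, and each library left out. Work was done in R 4.3.3 and in Python 3.11.15 (matplotlib 3.10.9, pandas 2.3.3).

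The members and lists were chosen with earlier results of these data known. By rule the members, the list genes past the threshold (up to 4 a list), the cell type markers and the 3 genes most like each member (log2 CPM with a prior count of 2) were named. The T cell markers summed to 3180 to 3440 CPM in GFPhi, 3420 to 3579 in GFPlow, and 8659 and 3512 in WT, the Treg markers to 1954 to 2059, 215 to 290, and 3648 and 2264. The high sums of WT 1 came from Cd3d (4583 CPM), Cd3g (3777 CPM) and Ikzf2 (2786 CPM). The other markers of these lists, Cd3e, Cd4, Foxp3, Il2ra and Ctla4, were lower in WT 1 than in WT 2. In the order GFPhi, GFPlow and WT, CD8 markers summed to 19.7 to 23.7, 21.5 to 32.8, and 37.7 and 16.2 CPM, nearly all from Cd8b1. B cell markers summed to 44.6 to 51.7, 4.95 to 11.8, and 73.8 and 53 CPM, mostly from Cd79b. A few genes that the rule would name are counted but not reported here. Neutrophil markers summed to at most 0.648 CPM, erythroid markers to at most 13.3 CPM, and platelet markers to at most 5.3 CPM apart from 40.6 in WT 1.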

Additional observations from a re-analysis of the deposited data

How the results depend on the processing

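Over members, comparisons and alternatives, 234 values stayed on their side of the threshold, 15 came to pass, 3 ceased to pass and 0 past the threshold changed sign. Among values that did not pass, the sign turned without WT 1 for Lgals9 (-0.04) and Hmgb1 (0.15) in GFPhi over WT and for Hmgb1 (0.20) and Bag6 (-0.15) in GFPlow over WT, with like values in DESeq2, and in GFPhi over GFPlow for Hmgb1 without GFPhi 2 (0.03) and for Ceacam1 without GFPhi 1 (0.13) and without GFPlow 3 (0.58). The log2 difference of Havcr2 in GFPhi over GFPlow ran from 1.87 to 2.92 over 17 alternatives, above 0 in all and past the threshold in 5. Havcr2 in GFPlow over WT passed in 14 of 17 and ceased to pass in voom (adjusted p = 1), with only both groups in the fit (edgeR, adjusted p = 0.0689) and without both libraries numbered 3 (edgeR, adjusted p = 0.0609). Both WT libraries had low weights in voom, 0.133 and 0.181, against 1.619 to 2.298 in the others.

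Counts past the threshold moved by more than 1.5 times as follows. Between GFPhi and GFPlow the 426 genes became 1375 with DESeq2, 2271 with voom and 2105 with only both groups in the fit, and 105 to 1984 with 1 library left out. Without both libraries numbered 3, 0 passed in edgeR, and 1368 had an unadjusted p under 0.05. The 4 pathway genes became 10 with voom and 9 with only both groups, 1 to 9 with 1 library left out, and 0 without both libraries numbered 3 (6 at an unadjusted p under 0.05). The 0 members became 1, Havcr2, with DESeq2, voom and only both groups, and 0 to 1 with 1 library left out.

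In GFPhi against WT the 0 genes became 1 with no filter on low counts, 320 with DESeq2, 72 with DESeq2 without WT 1, and 0 to 8234 with 1 library left out. The 0 pathway genes became 1 with DESeq2 without WT 1 and 0 to 31 with 1 library left out. The 0 members became 1 with no filter, with DESeq2 and with DESeq2 without WT 1, and 0 to 4 with 1 library left out, the 4 being without WT 2. In GFPlow against WT the 623 genes became 3243 with DESeq2, 72 with voom, 33 with only both groups, 2449 with DESeq2 without WT 1, 13 without both libraries numbered 3, and 213 to 9002 with 1 library left out. The 5 pathway genes became 11, 1, 1, 12 and 0 in the same settings (in the last, 9 at an unadjusted p under 0.05) and 2 to 33 with 1 library left out. The 1 member became 2 with DESeq2, 0 with voom, 0 with only both groups, 0 without both libraries numbered 3 (1 at an unadjusted p under 0.05), and 1 to 3 with 1 library left out. The cause of these shifts was not tested.

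GFPhi and GFPlow titles carry the letter M with a number, which may or may not mark a mouse. Xist reads stood in library 3 of both groups. The fits in the report have no replicate block, and blocked fits are among the 17 alternatives. The deviations of same-numbered GFPhi and GFPlow libraries from their group means correlated at 0.067, 0.066 and 0.149, and each library correlated best with its own number, a hint from the data rather than the design. With the replicate number as a block in all 8 libraries, 182 genes and 2 pathway genes passed between GFPhi and GFPlow, and 158 genes and 3 pathway genes in GFPlow against WT. Tbx21 in GFPhi against GFPlow and Batf in GFPlow against WT were among the calls lost under this block. With the block and only the GFPhi and GFPlow libraries, 1752 genes, 9 pathway genes and 1 member passed, Havcr2 at 2.46 (edgeR, adjusted p = 0.00376).

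With 2 WT libraries, of which WT 1 stands apart from the rest, differences from WT depend on which is used. A fit with 1 WT library assumes that it varies like the other groups. Ceacam1, with 60 reads at most, is limited by depth, and the filter of 5 CPM left it out. The outlier check needs at least 4 libraries in a group and was not run.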

Other observations

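Around Havcr2 on chromosome 11, a window of 400 kb on each side, chosen after the values were seen, holds 13 other protein-coding genes, of which 9 were tested. Between GFPhi and GFPlow 2 of the 9 passed in edgeR, Adam19 among them, against 2.26% of all genes, and in GFPlow against WT 3 passed, Adam19 and Med7 among them, against 3.30% of all genes. In GFPhi against WT 0 of the 9 passed in edgeR.

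Adam19, which encodes a membrane metalloprotease, stood at 97.9, 85.5 and 68.9 CPM in GFPhi, 31.7, 26 and 27.8 CPM in GFPlow, and 65.5 and 93.8 CPM in WT. GFPlow was below every other library. Its log2 difference was 1.56 ± 0.21 in GFPhi over GFPlow (SE; edgeR, adjusted p = 0.0101) and -1.48 ± 0.23 in GFPlow over WT (SE; edgeR, adjusted p = 0.0146). Med7, a Mediator subunit gene 12.2 kb from Havcr2, stood at 21.9, 27 and 27.4 CPM in GFPhi, 11.2, 17.2 and 11.2 CPM in GFPlow, and 60.6 and 31.5 CPM in WT. The groups did not overlap, with GFPlow lowest and WT highest, and GFPlow over WT passed (log2 -1.80 ± 0.33, SE; edgeR, adjusted p = 0.0274).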
